A study of Danio rerio with 20 samples.

Results

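Immediate-early genes are the genes that an active neuron transcribes first, and 10 of them were followed here in single neurons of the zebrafish forebrain. They were the rows of the deposited count table named fosab, fosb, fosl2, junba, junbb, egr1, egr3, npas4a, nr4a1 and bdnf, 10 of 18820 genes, each with 1 row. The neurons came from the central zone of the dorsal pallium (Dc) of Tg(HuC:H2B-GCaMP6f) fish, 4 to 5 weeks old, a line in which a calcium indicator sits in the nuclei of neurons. After the fish had received conspecific alarm substance (CAS), each neuron was judged under a two-photon microscope by its calcium activity and drawn into a glass pipette. The groups were 10 cells whose calcium activity was synchronized with that of other neurons and 10 non-synchronized cells whose activity was not. Both groups had received CAS and carried the same transgene, so no level without CAS was measured, and the time between CAS and collection is not given in the sources used here.

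Calcium that enters an active neuron switches on kinases of the CaMK and ERK families, which act on transcription factors such as CREB, SRF and MEF2 that are already bound or present in the nucleus. Immediate-early genes respond to these without new protein synthesis, and their RNA is short-lived, so that in rodents and fish they are widely used as marks of recent activity. Fos and Jun proteins pair to form the transcription factor AP-1, Egr proteins bind DNA through zinc fingers, Npas4 is a bHLH-PAS factor that in rodents answers mainly to calcium entry, Nr4a1 is an orphan nuclear receptor, and Bdnf is a secreted neurotrophin.

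Total counts were 795838 to 2493351 in the synchronized and 1131532 to 3144155 in the non-synchronized libraries, and levels are given as CPM, counts scaled to the same library total, which do not allow one gene to be set against another since gene lengths were not used. The labels do not name the fish of a cell, so each group was treated as 1 sample, no test between the groups was computed, and every SD is a spread between cells. Of 16 neuronal marker genes in the table, 14 were counted in all 20 cells. Genes of other cell types were counted as well. Summed over 12 genes of microglia and leukocytes, CPM passed 1000 in 0 synchronized and 3 non-synchronized cells (13, 19-1 and 22), and that of 7 red blood cell genes in 2 synchronized cells (4-1 and 5) and 3 non-synchronized cells (5, 6 and 18). Results are also given without these 8 libraries, an alternative chosen after seeing the data that kept 8 synchronized and 4 non-synchronized cells.

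The 10 genes were counted in nearly every neuron of both groups. Of the 200 combinations of gene and cell, 195 held at least 1 count, and fosab, junba, junbb, egr1, egr3, npas4a and bdnf were counted in all 20 cells. In the whole table, 1627 of 14404 genes with a mean of at least 1 CPM were counted in every cell. Most of these 14404 genes were at lower levels than the members, which averaged 135 CPM (nr4a1) to 1870 CPM (npas4a). Only 2272 genes averaged at least 100 CPM, and genes matched for level were not compared. The 5 combinations at 0 fell in 3 cells. fosb and nr4a1 were both at 0 in synchronized cell 14-1 and in non-synchronized cell 19-1, and fosl2 was at 0 in non-synchronized cell 17. A count of 0 allows up to 1.71, 1.13 and 2.37 CPM in these 3 libraries, which covers counting error alone, as no molecular identifiers are described. Another 7 combinations held 1 to 4 counts, among them nr4a1 with 1 count in synchronized cell 16 and in non-synchronized cell 15.

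**Figure D1:**
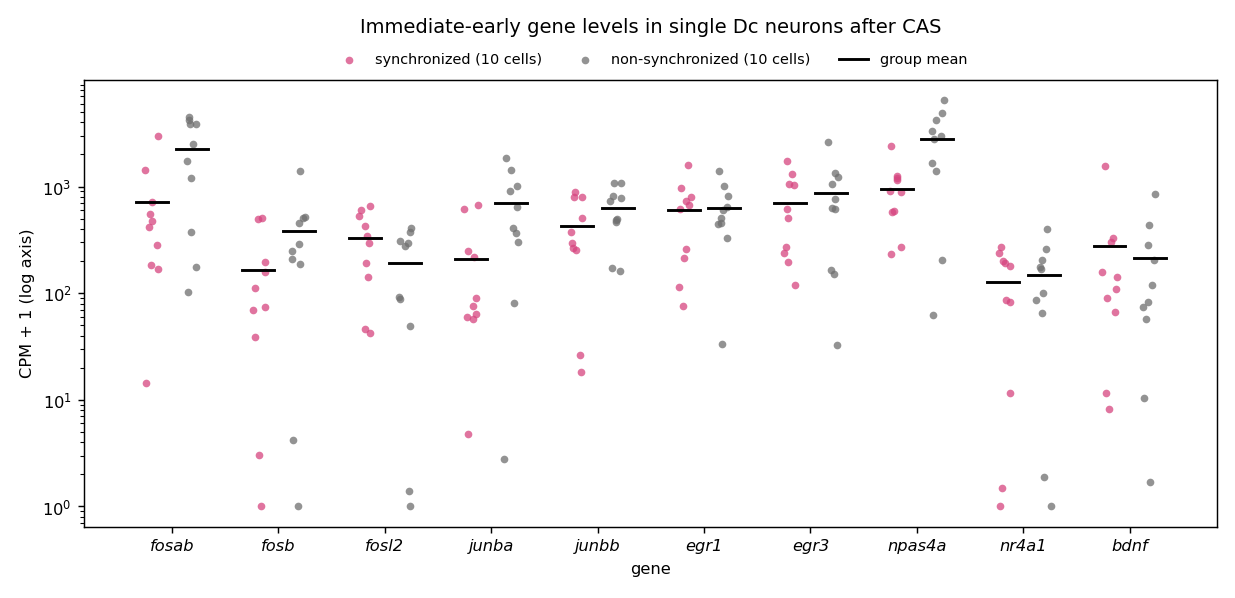
CPM + 1 on a log axis for each of the 10 genes (horizontal axis), with 1 point per cell (pink, 10 synchronized cells; gray, 10 non-synchronized cells) and a black line at the group mean. The groups overlap for every gene, and npas4a reaches 2380 CPM in the highest synchronized and 6422 CPM in the highest non-synchronized cell.

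Taken as a sum, the 10 genes were about 2-fold lower in synchronized cells. Their summed CPM was 2198 to 8657 (median 4660.4) in the synchronized cells and 1910 to 18018 (median 9108) in the non-synchronized cells. The sum averaged 4505 ± 2113 CPM in synchronized cells, against 8781 ± 4987 CPM in non-synchronized ones (SD, n = 10 cells each), a log2 ratio of -0.96. The groups overlapped, and the lowest of all 20 cells was non-synchronized cell 19-1. Non-synchronized cells 5, 6, 10, 13 and 22 stood above every synchronized cell, at 18018, 10325, 10875, 12081 and 12963 CPM. Of these, cells 5 and 6 were libraries rich in red blood cell genes, and cells 13 and 22 in microglia genes. Only cell 10 was outside the 8 libraries. Cells 5, 6, 13 and 22 also had GABAergic sums of 979 to 7499 CPM, against 10.5 CPM in cell 10. With the 8 libraries rich in genes of other cells left out, the means were 4275 CPM over 8 synchronized and 7297 CPM over 4 non-synchronized cells.

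fosab and npas4a made up much of this sum of CPM, a share that also depends on gene lengths, which were not used. Together they took 12.3% to 70.5% of it in synchronized cells (median 31.9%) and 7.12% to 71.9% in non-synchronized cells (median 59.1%). The sum of the other 8 genes averaged 2835 ± 1394 CPM in synchronized cells and 3739.6 ± 1871 CPM in non-synchronized cells, a log2 ratio of -0.40. This split of the sum was chosen after seeing the data. Of the 10 genes, 8 had a lower mean in synchronized cells, against 48.1% of all 14404 measured genes, and 4 were at least 2-fold lower, against 23.3% of all measured genes. None was at least 2-fold higher in synchronized cells, where 26.7% of all measured genes were. Most of the measured genes were at lower levels than the members, and genes matched for level were not compared here either. The median log2 ratio of the 10 genes was -0.43, beside 0.06 for all measured genes. For each of the 10 genes, the log2 ratio was smaller in size than the SD of log2(CPM + 1) between cells of a group, which was 1.45 (egr1) to 3.15 (fosb), and 1.69 for npas4a, 2.05 for fosab and 2.43 for junba. For the sum this SD was 0.86, close to the size of its ratio of -0.96. Each ratio came from means of CPM and each SD from log2 values of single cells. They are therefore not on the same scale, and the sum cannot be said to differ by more than the spread between cells. The direction of each gene was the same with TMM, RLE, poscounts and upper-quartile scaling, whereas the median of all measured genes moved to -0.05, -0.10, -0.15 and -0.69.

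**Figure D2:**
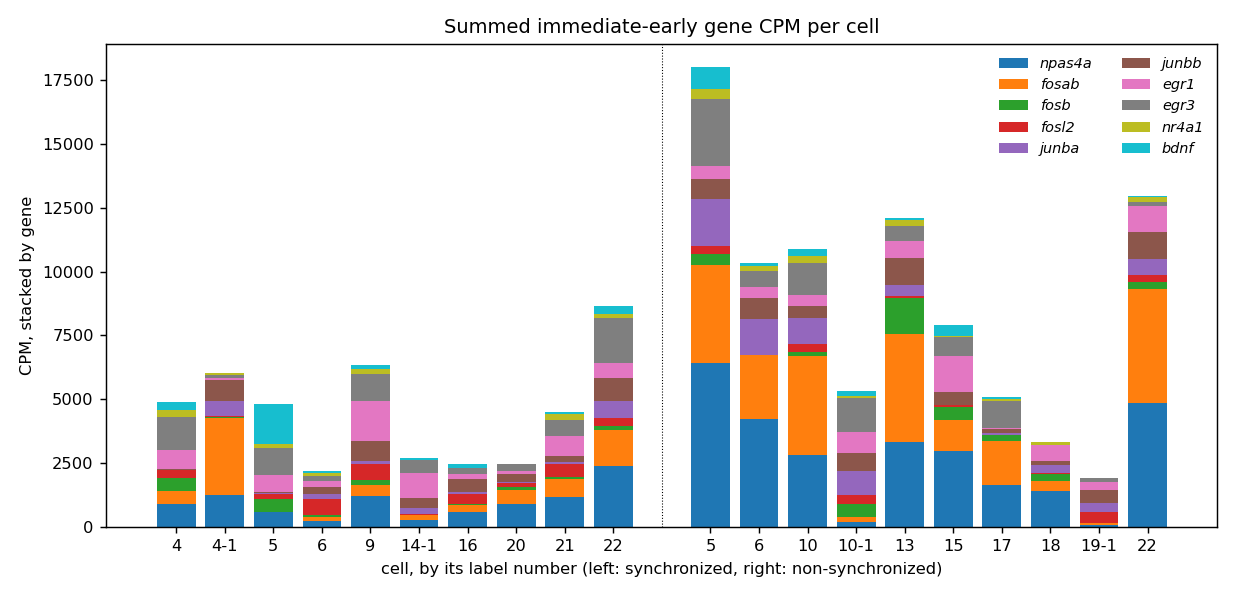
Stacked CPM of the 10 genes (vertical axis) in each cell, synchronized cells at the left and non-synchronized cells at the right, named by their label number. npas4a and fosab form the lowest 2 segments, and non-synchronized cell 5 has the tallest bar at 18018 CPM, against 8657 CPM in synchronized cell 22.

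npas4a, whose product in rodents controls genes of inhibitory synapses, had the most non-synchronized cells beyond the synchronized range. It was counted at 232 to 2380 CPM in synchronized cells (median 904) and at 62 to 6422 CPM in non-synchronized cells (median 2887). The means were 949 ± 623 CPM in synchronized cells, against 2792 ± 2031 CPM in non-synchronized cells (SD, n = 10 cells each), a log2 ratio of -1.56. No synchronized cell reached the non-synchronized median, and 6 of 10 non-synchronized cells exceeded the highest synchronized cell. Of these 6, cells 5, 6, 13 and 22 were among the 8 libraries rich in genes of other cells, and cells 10 and 15 were not. The non-synchronized cells were widely spread, however, and cells 10-1 and 19-1, at 205 and 62 CPM, were below all synchronized cells. Without the 8 libraries the means were 957 CPM in synchronized cells, against 1906 CPM in non-synchronized cells, and the log2 ratio of -0.99 was just short of 2-fold. GABAergic genes varied with npas4a: 4 of them summed to 0 to 1179 CPM in synchronized cells, against 0.414 to 7499 CPM in non-synchronized cells, and the Spearman rho of this sum with npas4a was 0.66 over 20 cells, -0.01 in synchronized and 0.75 in non-synchronized cells. Their part in the npas4a difference was not tested.

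fosab, one of the zebrafish counterparts of c-Fos, differed in the same way. It ranged between 13.4 CPM (cell 5) and 2999 CPM (cell 4-1) in synchronized cells, with a median of 443, and between 101 CPM (cell 19-1) and 4480.4 CPM (cell 22) in non-synchronized cells, with a median of 2117. The means were 722 ± 892 CPM in synchronized cells and 2249 ± 1759 CPM in non-synchronized cells, a log2 ratio of -1.64. The groups overlapped, with 4 non-synchronized cells above the highest synchronized one. Synchronized cell 4-1 carried much of its group's mean, which was 469 CPM without it, for a log2 ratio of -2.26. The log2 ratio was -1.73 without the 8 libraries. The GABAergic sum had a rho of 0.56 with fosab over 20 cells, 0.26 in synchronized and 0.44 in non-synchronized cells. The sum of 9 measured radial glia genes was 141 to 959 CPM in synchronized cells, against 226 to 1889 CPM in non-synchronized cells. It had a rho of 0.50 with fosab over 20 cells, 0.83 in synchronized and 0.37 in non-synchronized cells. The part of either in the fosab difference was not tested.

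The other Fos members did not share this pattern as a family. fosb, which codes for an AP-1 partner whose stable variant accumulates in rodents, was counted at 0 to 509 CPM in synchronized cells (median 91.6) and at 0 to 1407.5 CPM in non-synchronized cells (median 268). Its log2 ratio of -1.20 rested in part on non-synchronized cell 13, and was -0.69, below 2-fold, without it. It was -0.90 without the 3 microglia-rich libraries, of which cell 13 is one, -1.65 without the 5 red-blood-cell-rich libraries and -1.34 without all 8. fosl2, which codes for Fra-2, was counted at 41.7 to 656 CPM in synchronized cells (median 321) and at 0 to 412 CPM in non-synchronized cells (median 183). Its means ran the other way, at 327 ± 223 CPM in synchronized cells, against 189 ± 159 CPM in non-synchronized cells, a log2 ratio of 0.79, and 4 synchronized cells were above every non-synchronized cell. With any 1 cell left out, the fosl2 ratio was 0.62 to 0.99, and it was 1.03 without the 3 microglia-rich libraries, 0.78 without the 5 red-blood-cell-rich libraries and 0.97 without all 8.

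Both junb genes, paralogs that code for the Jun partner JunB, were lower on average in synchronized cells. junba had 3.77 to 677 CPM in synchronized cells (median 81.9) and 1.77 to 1838 CPM in non-synchronized cells (median 521). Its means of 209.7 ± 241 CPM in synchronized cells, against 698 ± 596 CPM in non-synchronized cells, gave the lowest log2 ratio of the 10 genes, -1.73, with 4 non-synchronized cells above the highest synchronized cell. junba also followed the library total (Spearman rho 0.70 over 20 cells, 0.37 in synchronized and 0.82 in non-synchronized cells), and the part of the total in its difference was not tested. junbb had 17.3 to 890.3 CPM in synchronized cells (median 332) and 159.5 to 1084 CPM in non-synchronized cells (median 615). Its log2 ratio was -0.57, with means of 422 ± 317 CPM in synchronized cells, against 628 ± 330 CPM in non-synchronized cells. The log2 ratios without the 8 libraries were -1.48 for junba and -0.14 for junbb. How reads shared by the junb paralogs were assigned is not given in the sources used here.

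Scaled to library totals, the Egr genes and nr4a1 had similar means in both groups. egr1 had 75 to 1582 CPM in synchronized cells (median 642) and 32.4 to 1402 CPM in non-synchronized cells (median 559), with means of 602 ± 464 CPM in synchronized cells, against 624 ± 380 CPM in non-synchronized cells. egr3 had 118 to 1740 CPM in synchronized cells (median 561) and 31.8 to 2637 CPM in non-synchronized cells (median 697), with means of 707 ± 550 CPM in synchronized cells, against 863 ± 772 CPM in non-synchronized cells. The log2 ratios were -0.05 for egr1 and -0.29 for egr3. nr4a1 had 0 to 268 CPM in synchronized cells (median 132) and 0 to 399 CPM in non-synchronized cells (median 135), a log2 ratio of -0.21. The sign of each of these ratios changed with 1 cell left out, with 6 different cells for egr1 and with non-synchronized cell 5 for egr3 (0.09) and nr4a1 (0.09). Without the 8 libraries the log2 ratios were -0.04 for egr1, -0.57 for egr3 and 0.26 for nr4a1. With upper-quartile scaling they were -1.70 for egr1, -1.16 for egr3 and -0.67 for nr4a1. The median of all measured genes was -0.69 with that scaling. It set the totals of non-synchronized cells 15 and 6 to 107455 and 268637, far below their library totals of 1131532 and 2496720. Synchronized cell 5 was set to 268637, from 1272118. TMM gave 1293386, 2022401 and 1239734 for cells 15, 6 and 5.

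bdnf, the only member whose product is a secreted signal, acting through the receptor TrkB, had the most uneven values. It was counted at 7.22 to 1566 CPM in synchronized cells (median 124) and at 0.706 to 854 CPM in non-synchronized cells (median 99.7). The highest value of either group was that of its cell 5. The means were 277 ± 465 CPM in synchronized cells, against 211 ± 263 CPM in non-synchronized cells, a log2 ratio of 0.39. With synchronized cell 5 left out, the synchronized mean was 134 CPM and the ratio -0.65. With non-synchronized cell 5 left out, its group's mean was 140.0 CPM and the ratio 0.98. The direction for bdnf therefore depended on single cells, and both cells were among the libraries rich in red blood cell genes. Without the 8 libraries the ratio was -0.74.

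**Figure D3:**
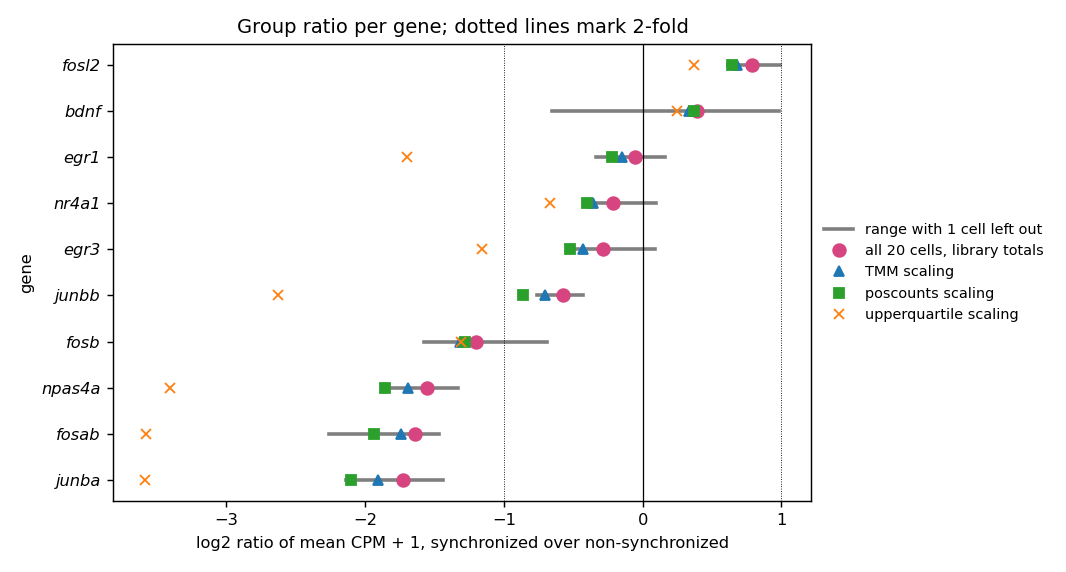
Log2 ratio of mean CPM + 1, synchronized over non-synchronized (horizontal axis), for each gene (vertical axis): the value from all 20 cells (pink), the range with 1 cell left out (gray bar) and 3 other scalings. The bars of junba, fosab and npas4a lie beyond 2-fold, and those of bdnf, egr1, nr4a1 and egr3 cross 0.

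Cell by cell, the 10 genes did not go up and down as 1 block. Over all 20 cells, the 45 pairs of members had a median Spearman rho of 0.22, between -0.42 and 0.89, and 33 pairs were positive. Of the 45 pairs, 6 had a rho of at least 0.5, or 13.3%, against 3.03% of all 2579856 pairs among the 2272 genes with a mean of at least 100 CPM. The median of those pairs was 0.01. Both genes of a pair were read from the same library at its own depth, and several cells may come from 1 fish, so all correlations are descriptions with no p-value. The median rho was 0.22 among the 10 synchronized and 0.24 among the 10 non-synchronized cells.

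The strongest pair was fosab with npas4a. Its rho was 0.89 over 20 cells, 0.87 among synchronized and 0.81 among non-synchronized cells, and 0.88 to 0.92 with any 1 cell left out. The ratio of fosab to npas4a CPM was 0.341 to 0.718 in 8 of the synchronized cells. The exceptions were cell 5 at 0.0230, with 13.4 CPM of fosab beside 581 CPM of npas4a, and cell 4-1 at 2.40, with 2999 CPM beside 1252 CPM. In the non-synchronized cells the ratio was 0.267 to 1.64. Without the 8 libraries, the rho of this pair was 0.90 over 12 cells.

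egr3 and bdnf formed the next pair, with a rho of 0.81 over 20 cells, 0.72 among synchronized and 0.89 among non-synchronized cells. Cells with little egr3 had little bdnf, such as synchronized cell 4-1 (118 and 7.22 CPM) and non-synchronized cell 18 (31.8 and 0.706 CPM). With any 1 cell left out the rho was 0.78 to 0.86, and without the 8 libraries it was 0.58 over 12 cells. This pair varied largely apart from the first: egr3 with npas4a had a rho of 0.24 and bdnf with fosab one of -0.07. Synchronized cell 5 had the lowest fosab of all 20 cells and the highest bdnf, whereas non-synchronized cell 22 had the highest fosab beside 165.5 CPM of egr3 and 55.7 CPM of bdnf.

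**Figure D4:**
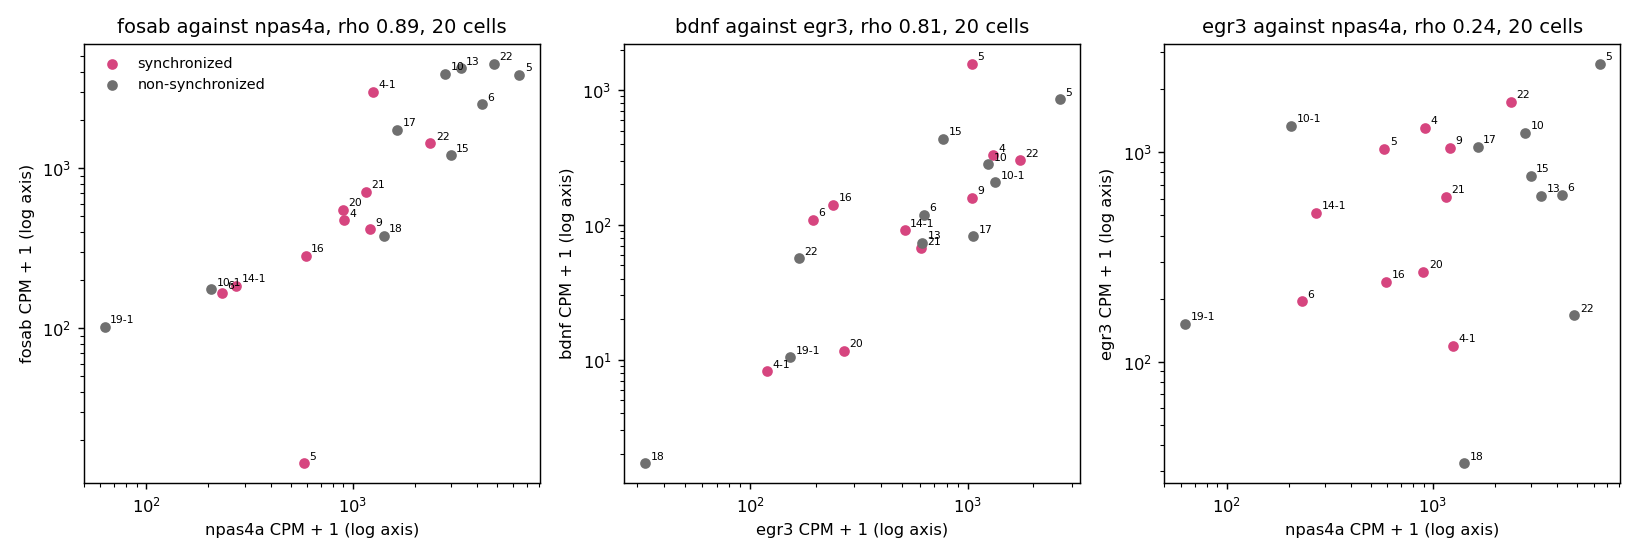
CPM + 1 on log axes for 3 pairs of genes, 1 point per cell, labelled with the cell's number (pink, synchronized; gray, non-synchronized). fosab follows npas4a (rho 0.89) apart from synchronized cell 5, bdnf follows egr3 (rho 0.81), and egr3 against npas4a is scattered (rho 0.24).

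Among the AP-1 genes, junba and junbb varied together (rho 0.61; 0.78 in synchronized and 0.45 in non-synchronized cells), and junbb followed fosab (0.56) and npas4a (0.50). Without the 8 libraries, the rho of junba with junbb was 0.39, and that of fosab with junbb was -0.08. Over 20 cells, fosl2 had the lowest rho of all pairs with fosab and npas4a, -0.39 and -0.42. Within groups these were weaker. With fosab the rho was -0.25 in synchronized and -0.24 in non-synchronized cells, and with npas4a -0.04 and -0.28. Among synchronized cells the lowest pair was fosab with bdnf at -0.45. Some relations differed between the groups in value, though the difference was not tested. nr4a1 with fosab was 0.15 in synchronized and 0.82 in non-synchronized cells, nr4a1 with fosb was 0.76 in synchronized and 0.13 in non-synchronized cells, and nr4a1 with junba was -0.42 in synchronized and 0.67 in non-synchronized cells.

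**Figure D5:**
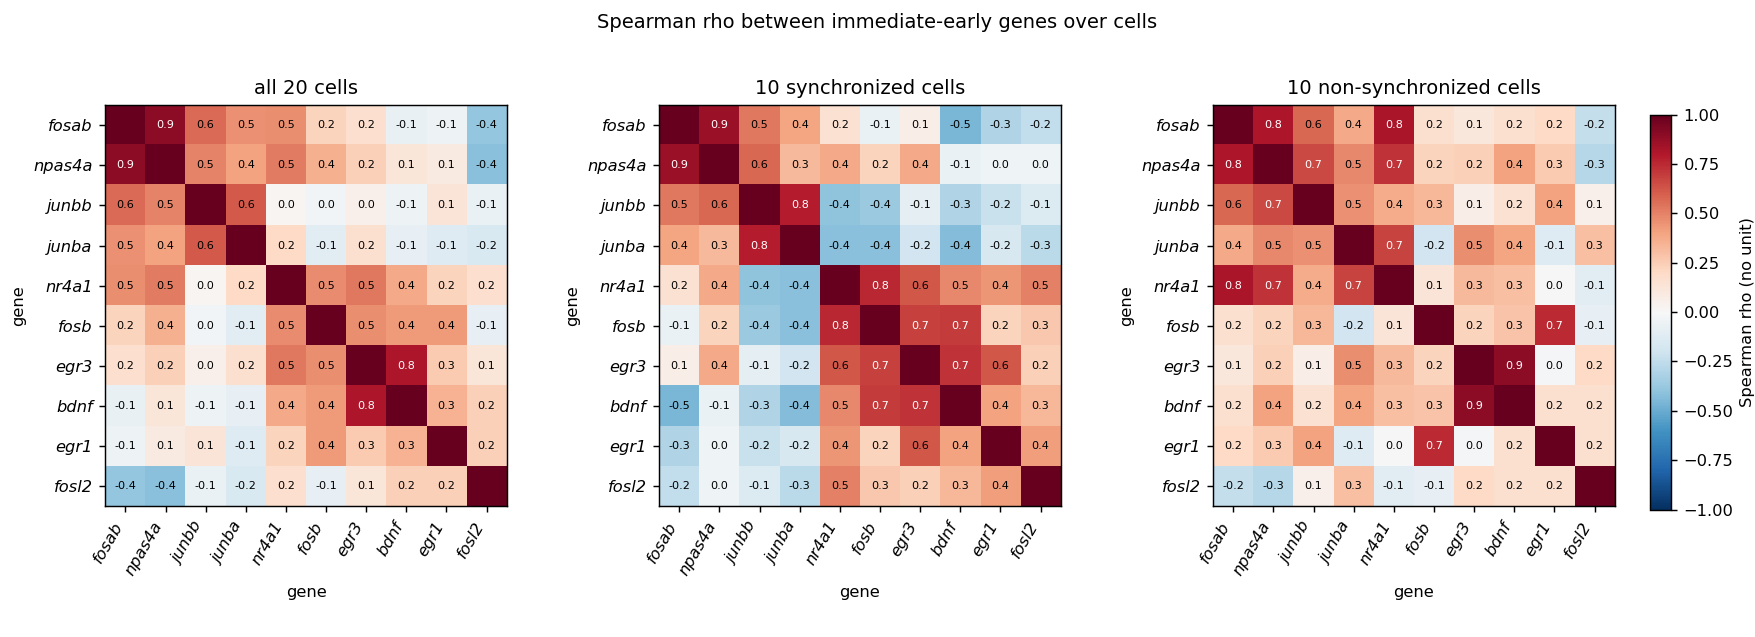
Spearman rho for each pair of the 10 genes (rows and columns) over all 20 cells, the 10 synchronized cells and the 10 non-synchronized cells, blue below 0 and red above. fosab with npas4a and egr3 with bdnf are at 0.72 or above in each panel, and fosl2 is below 0 with both fosab and npas4a. In the synchronized panel, fosl2 with npas4a is only -0.04.

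Single cells showed these combinations plainly. Non-synchronized cell 5 held the group's highest junba, egr3, npas4a, nr4a1 and bdnf values, and synchronized cell 22 its group's highest junba, junbb, egr3 and npas4a. Synchronized cell 9 had the highest egr1 (1582 CPM) and fosl2 (656 CPM) of the 20 cells, with 413 CPM of fosab. Non-synchronized cell 19-1 had the least npas4a of the 20 cells (62 CPM) and no count of fosb or nr4a1, beside 480.3 CPM of junbb and 412 CPM of fosl2. Cells that share a label number differed as well: fosab had 472 CPM in synchronized cell 4 and 2999 CPM in cell 4-1, and 3882 CPM in non-synchronized cell 10 against 174 CPM in cell 10-1.

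Several other measures varied with the members, and their part in the values above was not tested. The sum of 15 measured neuronal marker genes was 14467 to 30383 CPM in synchronized cells, against 13293 to 24622 CPM in non-synchronized cells. Its rho with the member sum was -0.50 over 20 cells, -0.65 in synchronized and -0.44 in non-synchronized cells. With npas4a it was -0.52 over 20 cells, -0.38 in synchronized and -0.68 in non-synchronized cells. The radial glia sum had a rho of 0.50 with npas4a (0.65 in synchronized, 0.35 in non-synchronized cells) and of -0.54 with bdnf (-0.30 in synchronized, -0.65 in non-synchronized cells). The sum of 3 measured endothelial genes was 0 to 99.98 CPM in synchronized cells, against 0 to 202 CPM in non-synchronized cells. Its medians were 0 and 0.221 CPM, so many cells were at or near 0. This sum had a rho of 0.58 with junba (0.22 in synchronized, 0.81 in non-synchronized cells). With the GABAergic sum, fosl2 had a negative rho, at -0.60 over 20 cells, -0.41 in synchronized and -0.54 in non-synchronized cells. bdnf had a rho of 0.49 with the sum of 3 vesicular glutamate transporter genes (165 to 734 CPM in synchronized, 0 to 695 CPM in non-synchronized cells), and of 0.50 in synchronized and 0.60 in non-synchronized cells. Of 7 measured oligodendrocyte genes, summing to 19.97 to 751 CPM in synchronized cells, against 16.9 to 340.0 CPM in non-synchronized cells, the sum followed that of the members, at 0.56 over 20 cells, 0.71 in synchronized and 0.84 in non-synchronized cells. Of 9 oligodendrocyte genes in the table, mpz and cldnk were at 0 in every non-synchronized cell. cldnk was counted in only 1 synchronized cell. plp1b averaged 13.6 CPM in synchronized cells, against 41.6 CPM in non-synchronized cells, and the other 6 measured genes were higher in synchronized cells. Of all 14404 measured genes, 48.1% were lower there. Other lists had such genes at 0 as well, and 4 microglia genes (csf1rb, mpeg1.1, c1qc and laptm5) were at 0 in every synchronized cell. The microglia sum, here of 11 measured genes, had a rho of -0.07 with the member sum. That of the red blood cell sum was 0.21, of the heat shock sum -0.11 and of the library total 0.27. The mitochondrial share of counts had -0.29, and -0.59 in non-synchronized cells. Over 20 cells, the microglia sum had a rho of -0.30 with egr3 and -0.19 with bdnf. These were -0.77 and -0.57 among non-synchronized cells, and 0.35 and 0.26 among synchronized ones. The median of this sum was 1.13 CPM for synchronized and 0.906 CPM for non-synchronized cells, so many cells were at or near 0. The red blood cell sum had a rho of 0.47 with junba over 20 cells, 0.68 among non-synchronized and -0.02 among synchronized cells.

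Other genes of the same pathway were described from lists. Of all 14404 measured genes, 48.1% had a lower mean in synchronized cells, the share to set beside each list. Of 33 measured further immediate-early transcription factor genes, 16 had a higher and 17 a lower mean in synchronized cells. Their sum had a rho of 0.61 with that of the members over 20 cells, 0.43 in synchronized and 0.82 in non-synchronized cells. egr4, a zinc finger factor of the Egr family, averaged 824 ± 1027 CPM in synchronized cells, against 1516 ± 1013 CPM in non-synchronized cells, and was the gene most like fosab (r = 0.75). klf9, a glucocorticoid-responsive factor in many vertebrates, averaged 692 ± 905 CPM in synchronized cells, against 218 ± 268 CPM in non-synchronized cells (log2 ratio 1.66, and 1.18 without synchronized cell 14-1). cremb, a gene of the CREM family of cAMP-responsive factors, was counted in 5 synchronized cells and 1 non-synchronized cell, averaging 15.6 ± 23.7 CPM in synchronized cells, against 0.172 ± 0.543 CPM in non-synchronized cells. Of 9 further AP-1 genes, 4 were higher and 5 lower in synchronized cells. jund, a Jun gene that is usually expressed steadily, had nearly equal means of 287 ± 162 CPM in synchronized cells, against 272 ± 156 CPM in non-synchronized cells. jun itself averaged 42.2 ± 78.8 CPM in synchronized cells, against 93.99 ± 128 CPM in non-synchronized cells. fosaa, the paralog of fosab, averaged 3.96 ± 7.93 CPM in synchronized cells, against 23.5 ± 39.5 CPM in non-synchronized cells.

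Of the pathway lists, that of feedback control followed the members most closely over all 20 cells, though not among non-synchronized cells alone. The summed CPM of 18 measured feedback phosphatase and RNA-binding repressor genes had a rho of 0.85 with the member sum over 20 cells, 0.71 in synchronized and 0.72 in non-synchronized cells. In non-synchronized cells the further immediate-early transcription factors were higher, at 0.82. Of the 18, 8 were higher and 10 lower in synchronized cells, with a median log2 ratio of -0.52. Of all 14404 measured genes 48.1% were lower, and their median was 0.06. btg1, a gene of the antiproliferative BTG/TOB family, averaged 643 ± 139 CPM in synchronized cells, against 1124 ± 591 CPM in non-synchronized cells. tob1a, of the same family, averaged 428 ± 234 CPM in synchronized cells, against 837 ± 468 CPM in non-synchronized cells. btg2, the gene outside the members that was most like nr4a1, was on this list too. The upstream kinase, phosphatase and transcription factor genes did not follow the members: 26 of 45 were higher and 19 lower in synchronized cells, and the rho of the sums was -0.003. camk2b1 and camk2a, which code for subunits of the calcium-dependent kinase CaMKII, averaged 772 ± 204 and 639 ± 569 CPM in synchronized cells and 686 ± 382 and 791 ± 717 CPM in non-synchronized cells. mef2ca, a MEF2 factor gene, was counted in 6 synchronized and 3 non-synchronized cells, at 24.2 ± 30.1 CPM in synchronized cells, against 1.08 ± 2.12 CPM in non-synchronized cells. rps6ka5, which codes for the kinase MSK1 that acts on CREB and histone H3, averaged 19.5 ± 34.3 CPM in synchronized cells, against 0.198 ± 0.265 CPM in non-synchronized cells, counted in 7 and 4 cells.

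Delayed effectors of activity were mixed, with 11 of 19 measured genes higher and 8 lower in synchronized cells. Of all 14404 measured genes, 48.1% were lower there. adcyap1b, a gene of the neuropeptide PACAP, averaged 3353 ± 1108 CPM in synchronized cells, against 1501 ± 1173 CPM in non-synchronized cells, and scg2b, which codes for a secretogranin of dense-core vesicles, averaged 1068 ± 651 CPM in synchronized cells, against 631 ± 371 CPM in non-synchronized cells. The somatostatin gene sst1.1 averaged 0.147 ± 0.335 CPM in synchronized cells, against 1197 ± 2430 CPM in non-synchronized cells and was counted in 2 and 5 cells. Of 7 measured neurotrophin and receptor genes, 2 were higher and 5 lower in synchronized cells, with a median log2 ratio of -0.15. The TrkC genes ntrk3a and ntrk3b were counted in all 10 synchronized and in 8 non-synchronized cells each. Their means in synchronized cells were 189 ± 150 and 254 ± 137 CPM, against 216 ± 216 and 166 ± 166 CPM in non-synchronized cells. ngfra, a gene of the p75 neurotrophin receptor, averaged 0.133 ± 0.307 CPM in synchronized cells, against 53.5 ± 104 CPM in non-synchronized cells and was counted in 2 and 6 cells. Of 20 measured heat shock genes, 6 were higher and 14 lower in synchronized cells, beside the 48.1% of all measured genes that were lower.

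Genes with a pattern like that of the members were sought over all 20 cells, by Pearson r of log2(CPM + 10) with the mean of the 10 members on that scale. The search covered 7865 named genes outside the 10 members that averaged 10 CPM or more and were counted in 10 or more cells. Of these, 119 had an r of at least 0.5, or 1.51%, and the median was -0.01. The highest r belonged to pcsk2 (0.82; 0.76 in synchronized and 0.86 in non-synchronized cells), which codes for the prohormone convertase PC2, a protease that cuts neuropeptide precursors. pcsk2 averaged 31.0 ± 24.5 CPM in synchronized cells, against 42.9 ± 31.7 CPM in non-synchronized cells and was counted in all 20 cells. It was followed by dennd11, sntg2, brdt and rtn4rl2a (0.73 each), syne3 (0.71), rxfp2a and btg2 (0.70 each), dclk1a (0.69) and ivns1abpa (0.68). These genes were picked as the highest of the 7865, and the r within groups came from the same cells. btg2, a BTG/TOB family gene that is itself induced early by growth factors and activity in mammals, averaged 344 ± 209 CPM in synchronized cells, against 589 ± 406 CPM in non-synchronized cells. It was also the gene most like nr4a1 (r = 0.80; 0.78 in synchronized and 0.84 in non-synchronized cells) and second for npas4a (0.75). The lowest r belonged to cntn3a.2 and kdm5c (-0.67 each), hspd1, arrb1 and rabep2 (-0.64 each), and hspd1 codes for a mitochondrial chaperone.

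Single members had other neighbours. For junba they were hnrnpa1b (r = 0.82), which codes for an RNA-binding protein, and hmgn2 (0.79), a nucleosome-binding protein gene. For junbb they were gabarapb (0.82) and myl6 (0.79), with r values of 0.91 and 0.90 in synchronized cells against 0.50 and 0.20 in non-synchronized cells. For fosl2 they were nr3c2 (0.78), the mineralocorticoid receptor gene, and shank3b (0.76), which codes for a scaffold of excitatory synapses. For egr1 they were snap25b (0.72) and kif1ab (0.70), for egr3 ammecr1 and csmd2 (0.74 each), and for bdnf eml1 (0.78) and cblb (0.71). The egr1 value for snap25b was 0.49 with 1 cell left out. brdt was the gene most like npas4a (0.75), pcnx2 was second for fosab (0.74) and nptx1l second for nr4a1 (0.74).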

How the data were processed

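The authors deposited raw read counts per Ensembl gene for 20 single-cell libraries, sequenced with 75 bp paired-end reads. The submitters' processing notes name danRer11 and edgeR 3.14.0, and for the aligner, the counter and its strand setting, what was used is not given in the sources used here. In another assembly, GRCz12tu, 6 of the 10 genes overlap a second annotated gene, such as fosab with si:ch211-153j24.3 (mean 23.9 CPM), and reads of such pairs cannot be told apart.

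CPM was computed from library totals, and the log2 ratio from group means after adding 1 CPM. A gene was measured with a mean of at least 1 CPM over all cells, and list sums used for rho held measured genes only. Spearman rho used log2(CPM + 1). The members and the gene lists were chosen with earlier results of these data known. Named genes were all members, the 10 genes most and the 5 least like the mean of the members, the 2 most like each member, and, from each list, the 2 with the highest level and the 2 with the largest ratio, of which the text gives some, and a few of them are not reported here. Log2(CPM + 10) served for likeness only, which was sought among genes outside the 10 members. Scripts were tested on simulated data.

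Alternatives were TMM and poscounts scaling, totals without mitochondrial genes, medians, a pseudocount of 10 CPM, Pearson r, thinning to 795838 counts in 20 draws, a minimum of 5 counts, averaging libraries that share a label number, and leaving out each cell. RLE and upper-quartile scaling, leaving out libraries rich in microglia or red blood cell genes, and leaving fosab and npas4a out of the sum were chosen after seeing the data. Scaling factors came from edgeR 4.0.16 and DESeq2 1.42.0 in R 4.3.3, and all other values from Python 3.11.15 with scipy 1.17.1, pandas 2.3.3 and numpy 2.4.6.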

Additional observations from a re-analysis of the deposited data

Results flagged for a closer look

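For each of the 10 genes and their sum, in each group, the highest and lowest cells were held against Dixon's 95% critical value for 10 cells, and 6 of 22 groups passed it. About 1 in 20 would do so by chance were the values normal, which skewed CPM values are not. In the synchronized group, cell 4-1 was far above the rest in fosab (2999 CPM, next 1428), as was cell 22 in npas4a (2380 CPM, next 1252) and cell 5 in bdnf (1566 CPM, next 328). In the non-synchronized group, this held for cell 13 in fosb (1407.5 CPM, next 513) and for cell 5 in egr3 (2637 CPM, next 1333) and bdnf (854 CPM, next 435). The sum of the 10 genes passed in neither group.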

How the results depend on the processing

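The log2 ratio of the summed CPM was -0.96 and stayed below 0 under every alternative run, up to -0.40 without fosab and npas4a, at -1.12 to -0.78 with 1 cell left out, and its largest shift was to -2.27 with upper-quartile scaling. That scaling also moved the median log2 ratio of the members to -1.50 (-0.65 to -0.31 with 1 cell left out), the number at least 2-fold lower in synchronized cells from 4 to 7, and the share of all measured genes with a lower mean in synchronized cells from 48.1% to 62.5%. It gave non-synchronized cells 15 and 6 and synchronized cell 5 totals far below their library totals, which raises their CPM. The part of these cells in the shifts was not tested. The number of members with a higher mean in synchronized cells, 2 as reported, was 1 without the microglia-rich libraries and 1 to 4 with 1 cell left out, and was 4 without non-synchronized cell 5. The median pairwise rho of 0.22 was 0.15 with TMM, 0.20 with poscounts, 0.19 with RLE and 0.33 with upper-quartile scaling, 0.27 with libraries of the same label number averaged, 0.19 as Pearson r, 0.17 without the red-blood-cell-rich libraries and 0.17 to 0.25 with 1 cell left out; the cause was not tested. Counts of at least 5 reads were found in 188 of 200 combinations of gene and cell.

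No paired analysis was possible because the fish of a cell is not named, the numbers that both groups share are not said to mark a fish, and no test between the groups was run. Differences between fish are not covered, and the depth of a library limits values of a few counts, such as those of fosb and nr4a1 in some cells.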
